A study of Homo sapiens with 21 samples.

Results

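The genes of oxidative phosphorylation were followed through 21 RNA-seq libraries of islet cells made from H1, a human embryonic stem cell line. A gene was taken as a member by its symbol alone: every mitochondrial (MT-) gene, and the nuclear genes of the NDUFA, NDUFB, NDUFC, NDUFS, NDUFV, UQCR, ATP5, SDHA to SDHD and COX5 to COX8 families, with 180 hyphenated and pseudogene-like symbols left out. The rule gave 122 of 62699 genes, 37 encoded by mitochondrial DNA (13 mRNA, 2 rRNA and 22 tRNA genes) and 85 encoded in the nucleus. Of the nuclear members 36 belong to complex I, 4 to complex II, 9 to complex III, 17 to complex IV and 19 to complex V. After a filter on low counts 107 members were tested, namely 82 nuclear, 13 mitochondrial mRNA, 2 rRNA and 10 tRNA genes, and the nuclear genes left untested were COX6A2, COX7B2 and COX8C.

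The cells were wild type (WT), ISL1-/-, PAX6-/- or PDX1-/-, all derived from H1, and each genotype received a lentivirus carrying either BFP alone or ISL1 with BFP on day 11 of the differentiation. BFP+ cells were sorted on day 18, so control and ISL1 groups alike carried a lentivirus and passed through a sort. Of the 8 groups, both WT groups and the PDX1-/- cells given ISL1 had 2 libraries, and the others had 3. The series describes them as biological replicates and does not say whether they came from separate clones, so the p-values measure the spread between these libraries. In sorted bulk cells, fewer cells of a type and less RNA per cell cannot be told apart.

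Oxidative phosphorylation is carried out by 5 complexes of the inner mitochondrial membrane. Complexes I, III and IV pass electrons to oxygen and pump protons, complex II feeds electrons in from succinate without pumping, and complex V uses the proton gradient to make ATP. Complex II is built from nuclear products only, whereas the other complexes combine subunits of both genomes, so that the 2 sets of transcripts are made by different polymerases in different compartments. In beta cells the ATP made this way couples glucose to insulin release.

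The labels were checked first. ISL1 reached 306 to 519 CPM (counts scaled to library size by the TMM method) in WT with BFP and 73.7 to 82.4 in ISL1-/- with BFP, and these ranges did not overlap. PAX6 at 99.5 to 166 CPM in PAX6-/- with BFP overlapped the 140 to 232 CPM of WT with BFP. PDX1 stood at 103 to 116 CPM in PDX1-/- with BFP, no lower than the 80.0 to 102 CPM in WT with BFP, so gene counts do not check those 2 genotypes. ISL1 ranged from 337 to 361 CPM in WT labelled ISL1, within the range of WT with BFP, and from 71.6 to 96.8 CPM in ISL1-/- labelled ISL1, overlapping its BFP group. Counts of ISL1 therefore do not check the vector labels. In ISL1-/-, the hormone gene GCG stood at 2197 to 5362 CPM with ISL1 and at 74.2 to 90.9 with BFP. The hormone gene SST stood there at 4.15 to 11.5 CPM against 0.390 to 0.572. In WT and PDX1-/-, SST was also higher with ISL1 without overlap, and in PAX6-/- its ranges overlapped. GCG ranges overlapped in PAX6-/- and PDX1-/-, and in WT GCG was lower with ISL1. Apart from these genes, the direction of the vector comparisons rests on the labels. CHGA, a secretory granule protein of endocrine cells, was abundant in every group, at 10301 to 48918 CPM.

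Depth ranged from 36.8 to 60.2 M assigned counts per library, with a median of 50.4 M. A pair of libraries stood apart in both member sets: PAX6-/- with ISL1, replicate 3, and PDX1-/- with ISL1, replicate 4. The 13 mitochondrial mRNAs took 1.30% and 1.78% of their counts, against 0.552% to 0.974% in the other 19 libraries. The 85 nuclear genes took 2.06% and 1.95%, against 0.900% to 1.16%. Of the 82 nuclear genes tested, 79 were higher in PAX6-/- with ISL1, replicate 3, than in any of the 19, and 79 were so in PDX1-/- with ISL1, replicate 4; for the mitochondrial mRNAs the counts were 12 and 13 of 13. The plot of set shares by library shows both libraries above the rest.

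**Figure D1:**
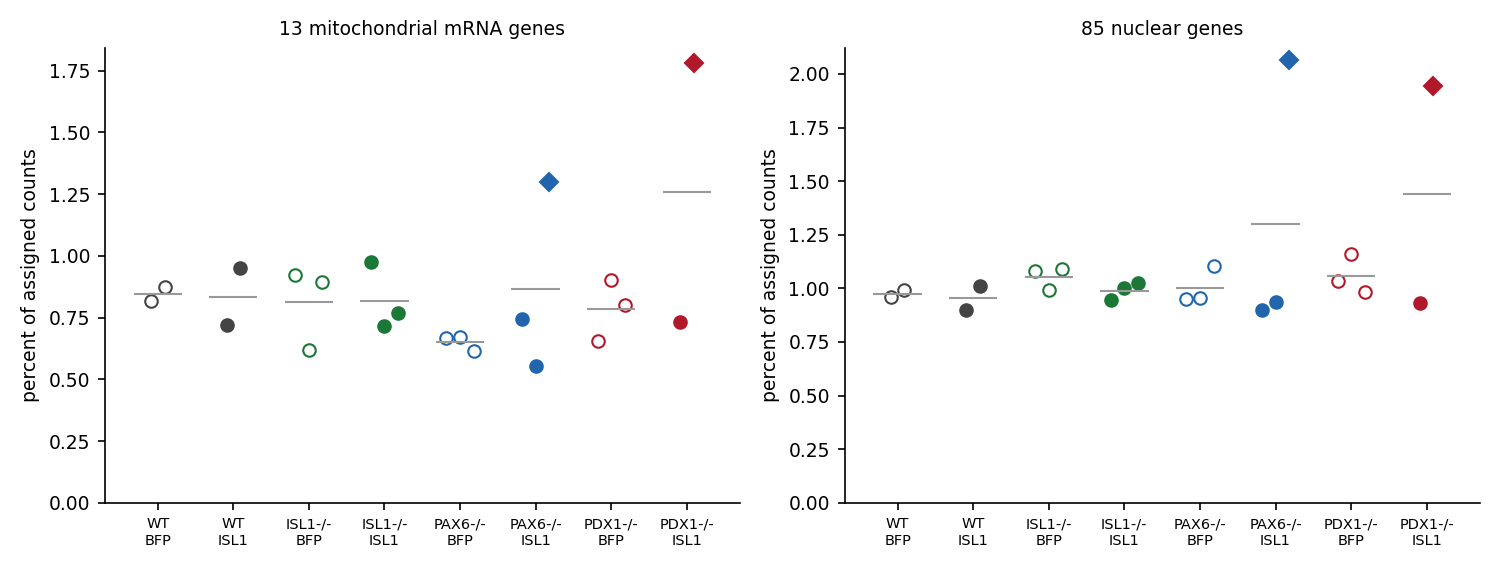
Percent of assigned counts taken by the 13 mitochondrial mRNA genes (left) and by the 85 nuclear genes (right), 1 point per library in 8 groups; open points are BFP and filled points ISL1 libraries, diamonds are the 2 libraries that stand apart and grey lines are group means. The diamonds lie at 1.30% and 1.78% on the left and at 2.06% and 1.95% on the right, above all 19 circles in both panels.

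Short transcripts outside the member list were high in these 2 libraries as well. The median nuclear member has an annotated transcript of 750 bases against 2515 for all genes with a length, and 79 of 82 are shorter than that. Non-member genes under 1000 bases deviated from their 21-library mean by a median log2 of 1.04 and 1.47 in the 2 libraries, and genes of 4000 bases or more by -0.85 and -0.98. In the other 19 libraries the same medians ran from -0.25 to 0.01 and from -0.07 to 0.23. Within that range the groups differed too. Genes of 4000 bases or more stood at -0.005 and -0.07 in WT with BFP and at 0.20, 0.16 and 0.05 in PAX6-/- with BFP. Leaving the 2 libraries out therefore does not remove differences with length between the groups. In the 2 libraries the 27 members of 1000 bases or more were high as well, with medians of 1.09 and 1.46, against 1.38 and 1.69 for the 55 shorter ones. Among the longest, NDUFA9, an accessory subunit of complex I, deviated by 0.87 and 1.15. The exceptions in both libraries were 2 of these 27: NDUFS1, a core subunit of complex I, deviated by -0.40 and -0.62, and SDHA, the flavoprotein of complex II, by -0.22 and -0.17. Ribosomal protein genes of the cytosol summed to 28948 and 41379 CPM in the 2 libraries against 9069 to 14061 in the others. PDX1-/- with ISL1, replicate 4, also held 121002 CPM of 7 alpha cell markers and 26198 CPM of 8 beta cell markers. Both sums lay above all other libraries. In that library GCG alone stood at 106084 CPM and INS, the insulin gene, at 25612. The sums thus rest mostly on 1 gene each and do not show the other markers to be high. Epsilon cell markers summed to 15841 CPM in PAX6-/- with ISL1, replicate 3, against at most 4623 in the 19. Of these, GHRL, the ghrelin gene, stood at 15335. Duct markers summed to 3487 and 3122 CPM in the 2 libraries against at most 1737. The part of these differences in the members' values was not tested. Most set results are given with all 21 libraries and in a fit without both, an alternative chosen after seeing the data. Some results, among them single genes and genes of the lists, are given in 1 of these fits only.

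**Figure D2:**
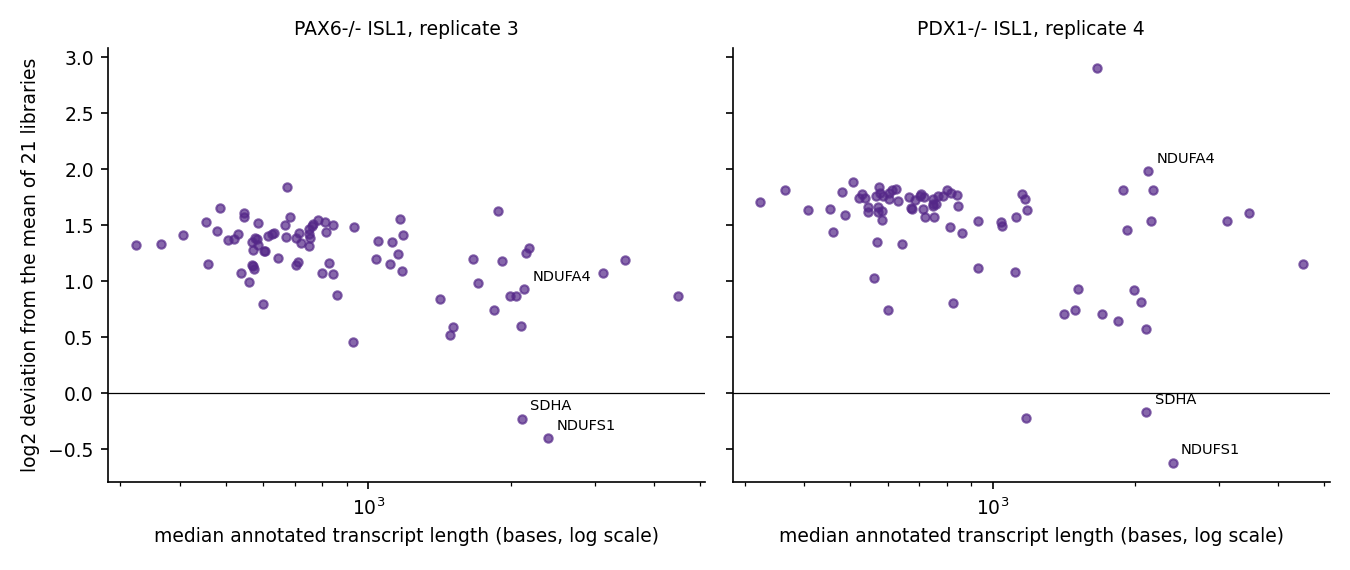
Log2 deviation of each of the 82 nuclear genes from its mean over 21 libraries against its median annotated transcript length in bases (log scale), in PAX6-/- with ISL1, replicate 3 (left), and PDX1-/- with ISL1, replicate 4 (right). Most genes lie above 0, while NDUFS1 lies at -0.40 and -0.62 and SDHA at -0.22 and -0.17.

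Mitochondrial DNA is transcribed as long polycistronic RNAs that are cut at the tRNAs, and its mRNAs nevertheless differed widely in counts. Per kilobase of exon, MT-CO2 (a catalytic subunit of complex IV) averaged 1719.8 CPM in WT with BFP, MT-CYB (the cytochrome b of complex III) 1329.5, MT-CO1 1096 and MT-CO3 1060.5. MT-ND4 averaged 986, MT-ND2 734, MT-ATP6 665, MT-ND5 466, MT-ND4L 431, MT-ND1 349, MT-ND6 204, MT-ATP8 103 and MT-ND3 52.4 on the same scale. On this scale the genes of complexes III and IV stood at the top, and MT-ATP8 and MT-ND3 at the bottom. These are counts per kilobase and not measured amounts of RNA. The part of the library preparation in them, and in those of the rRNA and tRNA genes, was not tested. Nuclear copies of mitochondrial DNA summed to 61.1 to 125 CPM in the 19 libraries that do not stand apart. Reads shared with them were not tested. MT-RNR2, the large rRNA, averaged 5437 CPM per kilobase and MT-RNR1, the small rRNA, 155, although both are made for the same ribosome. The 22 tRNA genes averaged at most 22.4 CPM per kilobase in WT with BFP, and their reads made up 0.000271% to 0.000942% of counts in the 19 libraries.

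The overlap of 2 of these genes limits what their counts can tell. MT-ATP8 and MT-ATP6, both subunits of complex V, lie on 1 transcript and share 46 bases, 22.2% of MT-ATP8, so reads in that stretch belong to both. The sequence is given from GENCODE v29 (GRCh38, chrM:8366-8572, plus strand), with the bases shared with MT-ATP6 (chrM:8527-9207) in capitals.
MT-ATP8: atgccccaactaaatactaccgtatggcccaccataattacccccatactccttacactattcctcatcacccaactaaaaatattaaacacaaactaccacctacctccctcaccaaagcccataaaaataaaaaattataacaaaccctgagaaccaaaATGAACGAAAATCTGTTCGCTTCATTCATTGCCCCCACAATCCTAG

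Across the 19 libraries the sets varied to different degrees. The highest library exceeded the lowest by a median factor of 2.18 over the mitochondrial mRNAs and of 1.59 over the nuclear genes. MT-CO3 varied most among the mRNAs, 4.12-fold from 260 CPM (PAX6-/- with ISL1, replicate 2) to 1071 CPM (WT with ISL1, replicate 2). MT-RNR1 varied 4.87-fold, from 61.5 to 299.9 CPM, against 1.72-fold for MT-RNR2. Among the nuclear genes ATP5F1B, the catalytic beta subunit of complex V, was the most abundant at 1089 to 1479 CPM, followed by ATP5F1A, the alpha subunit, at 738 to 1094 CPM. Of the other complexes, UQCRC1 of complex III ranged from 321 to 509.6 CPM, COX5A of complex IV from 236 to 457, and the NADH-binding NDUFV1 of complex I from 120.2 to 169. SDHA varied by a factor of 1.37, from 19.7 to 27.0 CPM, and ATP5F1B by 1.36. In 5 of these 6 genes the 2 libraries that stand apart exceeded all 19 values, SDHA being the exception at 20.2 and 21.0 CPM.

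The balance between the genomes was read as mitochondrial mRNA counts per nuclear member count. It was 0.853 and 0.884 in WT with BFP and 0.799 and 0.939 in WT with ISL1. It was 0.854, 0.625 and 0.820 in ISL1-/- with BFP, and 1.03, 0.716 and 0.751 in ISL1-/- with ISL1. It was 0.704, 0.707 and 0.558 in PAX6-/- with BFP, and 0.828, 0.590 and 0.629 in PAX6-/- with ISL1. It was 0.633, 0.779 and 0.814 in PDX1-/- with BFP, and 0.786 and 0.916 in PDX1-/- with ISL1. All PAX6-/- and PDX1-/- libraries with BFP lay below both WT libraries with BFP, while ISL1-/- overlapped them. The 2 libraries that stand apart had ordinary ratios, 0.629 and 0.916, because both sets were high in them. As a log2 ratio, PAX6-/- with BFP lay 0.41 below WT with BFP (difference -0.41), PDX1-/- with BFP at -0.24 and ISL1-/- with BFP at -0.19, beside a pooled SD within groups of 0.22.

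Loss of PAX6 went with lower mitochondrial mRNAs. In PAX6-/- with BFP, 12 of 13 mitochondrial mRNAs lay below both WT libraries in every replicate, while 23.4% of all genes tested did so. The exception was MT-ND6, the only mRNA read from the light strand, at 113, 114 and 112 CPM against 106 and 109. The strand setting of the counting is not given, so the MT-ND6 count may also hold reads of the other strand. The median log2 difference was -0.52 over the 13 mRNAs and -0.13 over the 82 nuclear genes, beside 0.03 over all genes. With all 21 libraries in the fit no member passed an adjusted p of 0.05, where 2.25% of all genes were called higher and 3.26% lower. An unadjusted p under 0.05 was seen for 0 of 13 mRNAs, beside 4941 of the 25884 genes tested. Without the 2 libraries that stand apart, 8 of the 13 mRNAs were called lower (61.5%), against 8 of 82 nuclear genes (9.76%) and 11.9% of all genes, while 1 nuclear gene and 11.7% of all genes were called higher. The nuclear share is thus near the background and that of the mitochondrial mRNAs is above it, although the 13 mRNAs come from 1 genome and are not independent.

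The 8 mitochondrial mRNAs called lower span complexes I, III, IV and V. MT-CO3 stood at 468, 433 and 324 CPM in PAX6-/- with BFP and at 823 and 840 in WT with BFP. Its log2 fold change was -1.04 (SE 0.35, adjusted p = 0.0403) without the 2 libraries and -1.03 (SE 0.61, adjusted p = 0.401) with them. MT-CYB fell from 1432 and 1602 CPM to 969, 903 and 906 (log2 -0.72, SE 0.19, adjusted p = 0.00934 without the 2 libraries, 0.454 with them). The groups do not overlap for either gene. MT-ATP6 changed by -0.65, MT-CO2 by -0.73, MT-ND3 by -0.60, MT-ND4 by -0.53, MT-ND4L by -0.37 and MT-ND5 by -0.36 in the same fit, with adjusted p from 0.00877 to 0.0414. The estimates themselves moved little between the fits, and the standard errors shrank. The plot of mitochondrial mRNAs in genome order shows the estimate of PAX6-/- below those of ISL1-/- and PDX1-/- at all 13 genes.

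**Figure D3:**
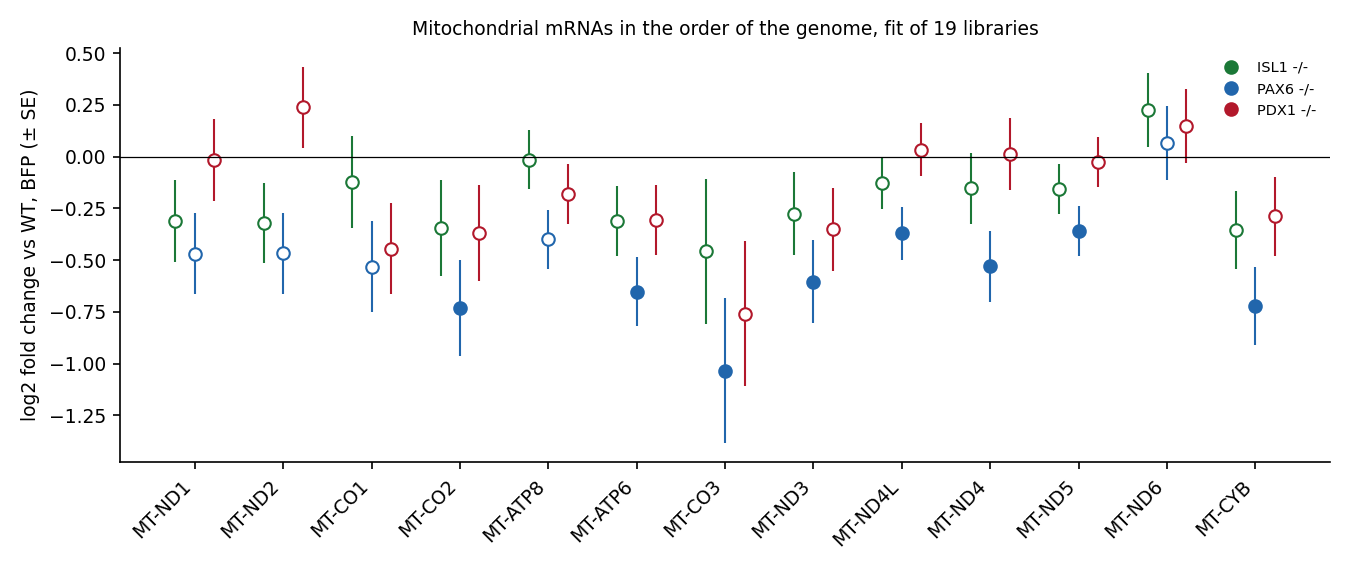
Log2 fold change against WT, all with BFP, of the 13 mitochondrial mRNAs in the order of the genome, in the fit of 19 libraries; bars are standard errors and filled points passed an adjusted p of 0.05. Only PAX6-/- has filled points, 8 of 13, down to -1.04 at MT-CO3, and MT-ND6 lies above 0 in all 3 genotypes.

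The nuclear genes called lower in PAX6-/- with BFP, a share no higher than the background, included 3 of the 4 of complex II. SDHD, a membrane anchor of complex II, stood at 92.2, 88.7 and 106 CPM against 140 and 159 in WT with BFP (log2 -0.66, SE 0.11, adjusted p = 3.5e-04 without the 2 libraries, 0.392 with them). The other anchor, SDHC, changed by -0.40 and SDHB, the iron-sulfur subunit, by -0.38 in the fit without the 2 libraries, with adjusted p of 0.0168 and 0.0389. SDHA stood at 21.1, 23.8 and 23.1 CPM against 26.4 and 26.3 and was not called. The other genes called lower were ATP5MC3 (a ring subunit of complex V, -0.45), NDUFA4 (a subunit of complex IV despite its name, -0.44), ATP5F1A (-0.37), NDUFS1 (-0.36) and UQCRFS1 (the Rieske protein of complex III, -0.32). Alpha and beta cell markers were lower in the same libraries: 3 of 7 and 4 of 8 were called lower, and the alpha markers summed to 1552 to 2192 CPM against 42222 to 56779 in WT with BFP, with GCG at 15.7 to 77.9 CPM. Epsilon cell markers were higher, 2 of 2 called, at 3071 to 4623 CPM summed against 188 to 207, with GHRL, the ghrelin gene, at 2519 to 3773 against 74.5 to 83.6. Their part in the members' values was not tested.

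The upstream sequences of SDHB and SDHD are shown as examples of the complex II genes called lower in the fit of 19 libraries. RefSeq promoters (GRCh38.p14) were found for 68 of the 85 nuclear members. In the 250 bases before the start, on either strand, the core of the NRF1 site, GCGCATG, was in 14 of the 68 (20.6%) and in 4.59% of all genes. The ETS core bound by GABPA, CCGGAAG, was in 18 (26.5%) against 10.2%, the ESRRA core AAGGTCA in 7 (10.3%) against 4.22%, and the YY1 core AAGATGG in 5 (7.35%) against 4.49%. Nuclear respiratory factors are known regulators of these gene families, and a match of letters is a description only. Capitals mark these motifs in the sequences; the run of 10 capitals in SDHD is GCGCATG overlapping its own reverse complement.
SDHB (chr1:17054033-17054282, minus strand): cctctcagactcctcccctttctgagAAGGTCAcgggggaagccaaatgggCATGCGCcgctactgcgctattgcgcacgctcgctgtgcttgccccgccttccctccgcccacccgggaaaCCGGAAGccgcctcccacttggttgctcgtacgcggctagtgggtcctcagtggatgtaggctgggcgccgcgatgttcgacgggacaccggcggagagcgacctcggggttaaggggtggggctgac
SDHD (chr11:112086623-112086872, plus strand): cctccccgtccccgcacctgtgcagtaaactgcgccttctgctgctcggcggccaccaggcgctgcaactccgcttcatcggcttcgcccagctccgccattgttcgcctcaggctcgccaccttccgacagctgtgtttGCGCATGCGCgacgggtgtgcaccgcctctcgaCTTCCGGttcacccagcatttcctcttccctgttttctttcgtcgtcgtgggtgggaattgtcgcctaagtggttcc

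ISL1-/- with BFP showed smaller differences. The median log2 difference from WT with BFP was -0.29 over the mitochondrial mRNAs and 0.00 over the nuclear genes, beside 0.02 over all genes. Of the 13 mRNAs 6 lay below both WT libraries, where 25.7% of all genes did. No member was called in the fit of all libraries, where 1.67% of all genes were called higher and 3.92% lower. An unadjusted p under 0.05 was seen for 1 of 82 nuclear genes and 0 of 13 mRNAs, beside 4971 of the 25884 genes tested. Leaving the 2 libraries out, 2 nuclear genes were called higher and 4 lower, and no mitochondrial mRNA, beside 11.3% and 12.2% of all genes; both shares of the nuclear genes, 2.44% and 4.88%, are below the background.

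Of the nuclear genes called in ISL1-/- with BFP, NDUFB8 moved most among those lower. NDUFB8, an accessory subunit of complex I, stood at 18.4, 17.4 and 20.8 CPM against 29.5 and 32.7 in WT with BFP (log2 -0.71, SE 0.13, adjusted p = 6.8e-04 without the 2 libraries, 0.412 with them). Exons of other genes cover 48.5% of its exon bases, so part of its count cannot be assigned with certainty. SDHD stood at 106, 108 and 101 CPM against 140 and 159 (log2 -0.49, adjusted p = 0.00393 without the 2 libraries, 0.526 with them). ATP5F1A changed by -0.34 and ATP5MC3 by -0.31, whereas ATP5MC2, a second gene for the same ring subunit as ATP5MC3, rose by 0.36. Alpha cell markers summed to 921 to 1102 CPM in these libraries against 42222 to 56779 in WT with BFP, with 5 of 7 called lower in either fit. Muscle markers summed to 137 to 612 CPM over 13 genes against 16.5 to 52.8, with 1 of 11 tested (CKM) called higher, and 7 of 11 without the 2 libraries. The part of these markers was not tested.

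PDX1-/- with BFP showed few calls among the members. The set medians were -0.16 for the mitochondrial mRNAs and 0.08 for the nuclear genes, beside 0.03 over all genes, and 5 of 13 mRNAs lay below both WT libraries, where 25.4% of all genes did. NDUFA4L2 was the 1 member called in the fit of all libraries (adjusted p from 7.9e-04 to 0.249 over the alternatives, the highest without WT with BFP, replicate 1), where 4.03% of all genes were called higher and 5.65% lower. In the fit of 19 libraries 5 nuclear genes were called higher (6.10%) and 3 lower (3.66%), both below the 13.5% and 14.1% of all genes, and the tRNA gene MT-TL1 was called lower. Enterochromaffin markers were higher in the same libraries, 5 of 6 called, and summed to 3603 to 4241 CPM against 882 to 986 in WT with BFP; INS, the insulin gene, stood at 87.5 to 186 CPM against 5651 to 7185. The part of these markers was not tested.

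COX6A1, the common form of a small subunit of complex IV, stood at 198, 227 and 176 CPM in PDX1-/- with BFP against 130 and 135 in WT with BFP (log2 0.57, SE 0.13, adjusted p = 0.00370 without the 2 libraries, 0.538 with them). COX5B rose by 0.47 and COX7A2L, which helps join complexes III and IV into supercomplexes, by 0.48 in that fit. NDUFB8 rose by 0.41, opposite in sign to its change in ISL1-/-. NDUFA4 stood at 110, 113 and 93.8 CPM against 162 and 149 (log2 -0.58, SE 0.14, adjusted p = 0.00437 without the 2 libraries, 0.481 with them). NDUFS4, another subunit of complex I, fell from 35.9 and 40.9 CPM to 25.3, 31.2 and 25.8 (log2 -0.50, adjusted p = 0.0150 without the 2 libraries, 0.708 with them), and ATP5F1A changed by -0.29. For COX6A1, NDUFA4 and NDUFS4 no knockout library lay within the WT range.

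NDUFA4L2 was called in all 3 knockouts with BFP and for all 3 of their vector comparisons once the 2 libraries were left out. It encodes a relative of NDUFA4 that is best known as a target of hypoxia signalling. It stood at 1.03 and 0.937 CPM in WT with BFP, at 1.74, 1.73 and 2.60 in ISL1-/- with BFP, at 1.99, 2.11 and 3.22 in PAX6-/- with BFP and at 2.64, 3.07 and 2.56 in PDX1-/- with BFP. All 9 knockout libraries with BFP were above both WT libraries. With ISL1 it stood at 0.777 and 1.17 CPM in WT, at 1.09, 1.23 and 1.10 in ISL1-/-, at 1.16, 0.943 and 3.44 in PAX6-/- and at 1.16 and 1.36 in PDX1-/-. In the knockouts every ISL1 library but PAX6-/- replicate 3, which stands apart, was therefore below the BFP libraries of its genotype. These are low levels, 31 to 172 counts per library.

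The fold changes of NDUFA4L2 against WT with BFP were 1.03 (SE 0.45, adjusted p = 0.206) in ISL1-/-, 1.30 (SE 0.45, adjusted p = 0.106) in PAX6-/- and 1.48 (SE 0.45, adjusted p = 0.0468) in PDX1-/-, on the log2 scale and with all libraries. In the 19-library fit they were 1.05, 1.29 and 1.46, with adjusted p of 0.0108, 0.00256 and 7.9e-04. The 3 comparisons share the WT libraries. With ISL1 against BFP it changed by -0.86 in ISL1-/-, by -1.22 in PAX6-/- and by -1.21 in PDX1-/-, with adjusted p of 0.0417, 0.0153 and 0.0384 in that fit, and by -0.02 (adjusted p = 0.993) in WT. With all libraries the adjusted p were 0.626, 0.669 and 0.0969. The difference of these vector effects from that in WT did not pass the test in any genotype (log2 -0.83, -1.20 and -1.19, adjusted p = 0.554, 0.305 and 0.228 without the 2 libraries). In PDX1-/- the fit without the 2 libraries leaves 1 ISL1 library, which is assumed to vary like the others.

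**Figure D4:**
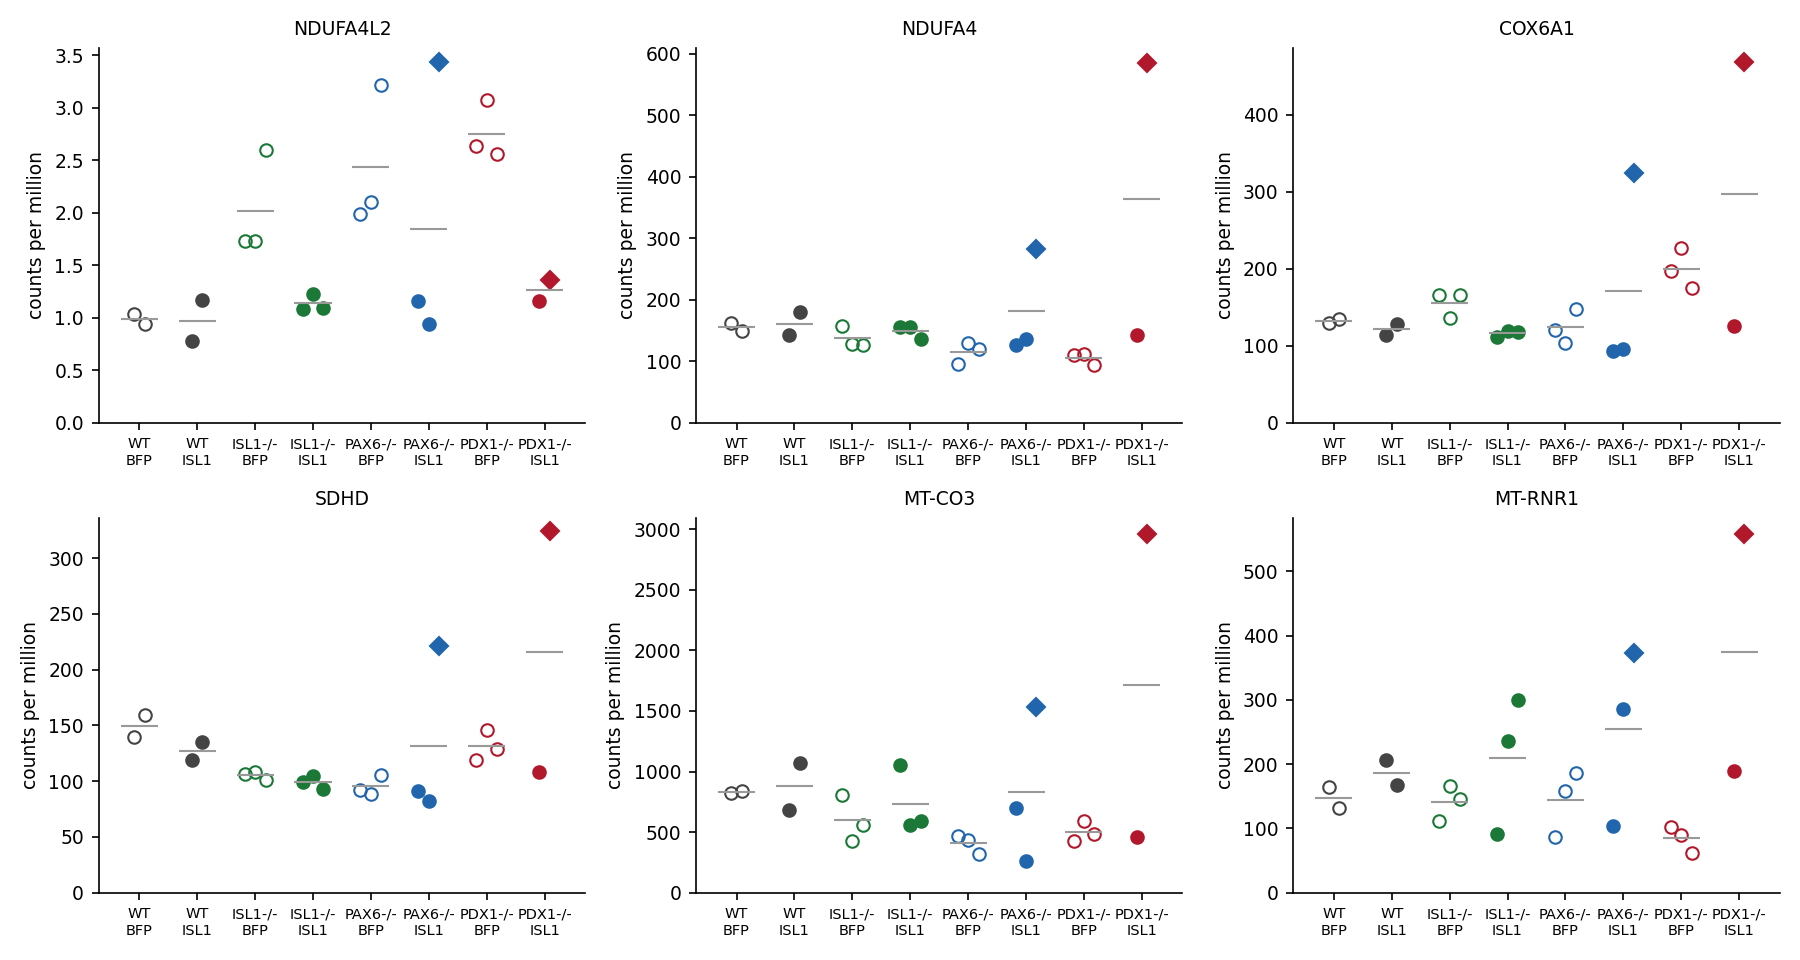
CPM (TMM-normalised) of 6 members in every library, by genotype and vector; open points are BFP and filled points ISL1 libraries, diamonds are the 2 libraries that stand apart and grey lines are group means. NDUFA4L2 is higher in all 9 knockout libraries with BFP, 1.73 to 3.22, than in the 4 WT libraries, 0.777 to 1.17, and the diamonds reach 585 for NDUFA4 and 2959 for MT-CO3.

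The vector comparisons depended on the 2 libraries for their direction. In PAX6-/-, ISL1 against BFP gave a median log2 difference of 0.45 over the mitochondrial mRNAs and 0.60 over the nuclear genes with all libraries, and of -0.08 and -0.21 without the 2. In PDX1-/- the medians were 0.97 and 0.97 with all libraries and -0.12 and -0.26 without. In WT they were -0.03 and -0.07, and in ISL1-/- -0.02 and -0.14, where neither library takes part. The median over all genes was 0.11 in PAX6-/- and 0.13 in PDX1-/- with all libraries. Without the 2 libraries 79 of 82 nuclear genes had negative estimates in ISL1-/-, 78 in PAX6-/- and 77 in PDX1-/-, while over all genes in that fit 50.2%, 49.2% and 49.1% were negative, with medians of 0.00, 0.01 and 0.01. The nuclear median in WT was -0.07 with all libraries, a different fit from that of these counts. In an alternative fit with a term for replicate number, most nuclear estimates in WT were positive instead. Whether the negative direction is particular to the knockouts was not tested. Most members are shorter than the median gene, and the part of transcript length was not tested. These genes also vary together within a library and are not independent.

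**Figure D5:**
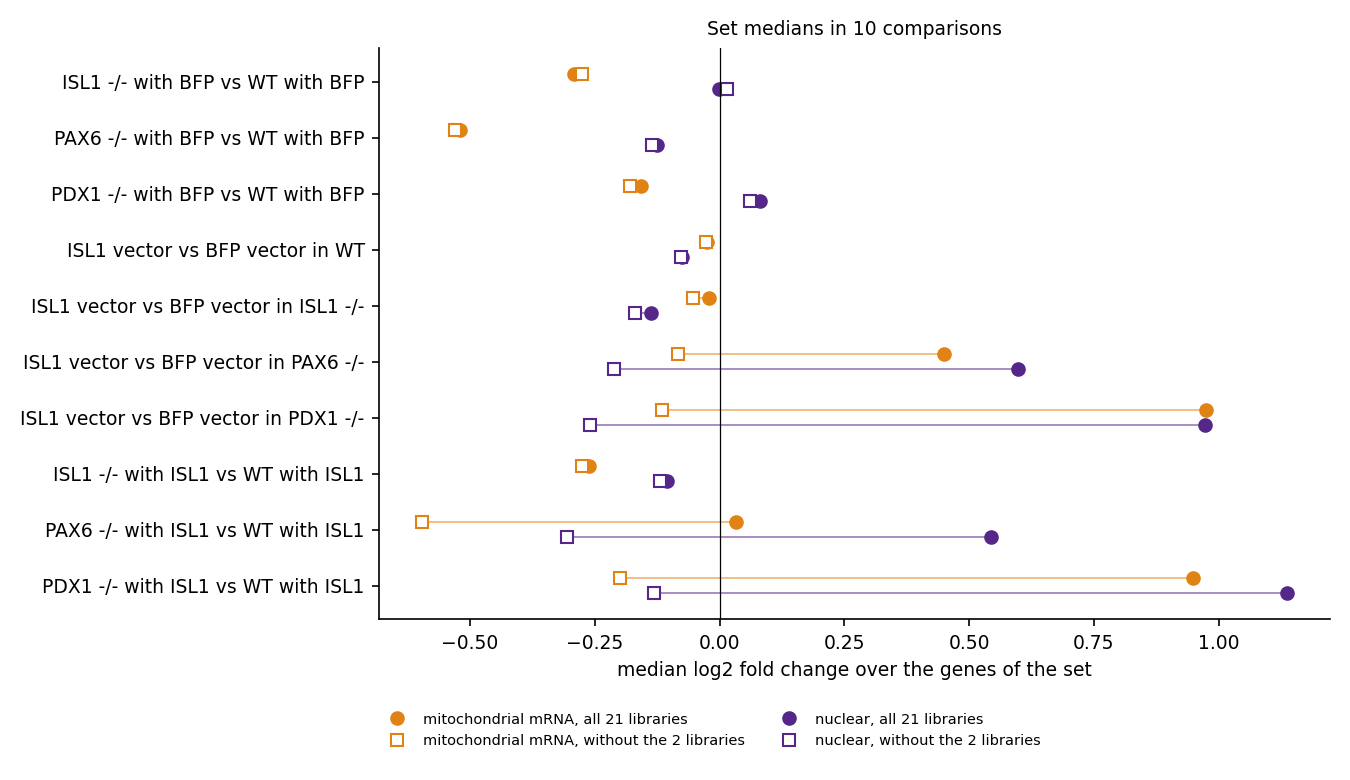
Median log2 fold change over the 13 mitochondrial mRNAs (orange) and the 82 nuclear genes tested (purple) in 10 comparisons, with all 21 libraries (filled circles) and without the 2 libraries that stand apart (open squares). Circles and squares lie on opposite sides of 0 for ISL1 against BFP in PAX6-/- and PDX1-/-, for example at 0.97 and -0.26 for the nuclear genes of PDX1-/-.

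Few members were called for the vectors. In WT none of the 107 was called, beside 0.027% of all genes higher and 0% lower. No nuclear gene or mitochondrial mRNA had an unadjusted p under 0.05 in that comparison, where 988 of the 25884 genes tested did. In ISL1-/- none was called, beside 0.251% higher and 0.131% lower, and in PAX6-/- none, beside 0.17% and 0.185%. In the 19-library fit 3 nuclear genes were called lower in ISL1-/- (COX6A1 at -0.46, COX7A2L at -0.46 and NDUFA4L2), where 1.91% of all genes were higher and 3.02% lower. In PAX6-/- 4 were called lower in that fit (COX7A2L at -0.60, SDHB at -0.47, ATP5MC1 at -0.40 and NDUFA4L2), where 1.33% of all genes were higher and 3.65% lower. In PDX1-/- 4 were called lower (COX6A1 at -0.65, COX8A at -0.58, COX5B at -0.54 and NDUFA4L2), where 5.46% were higher and 3.46% lower, and all 4 were counted under complex IV. COX6A1 stood at 126 CPM in the single PDX1-/- ISL1 library left, and at 111, 119 and 117 in ISL1-/- with ISL1 against 166, 136 and 166 with BFP.

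With all libraries 4 members were called for the vector in PDX1-/-, 3 higher and 1 lower, where 8.19% of all genes were higher and 4.33% lower. NDUFA4 stood at 142 and 585 CPM with ISL1 and at 110, 113 and 93.8 with BFP (log2 1.79, SE 0.41, adjusted p = 0.0106). MT-RNR1 stood at 190 and 559 CPM against 103, 89.4 and 61.5 (log2 2.15, SE 0.52, adjusted p = 0.0150). MT-ATP8 stood at 20.5 and 69.1 CPM against 18.4, 19.4 and 19.4 (log2 1.23, adjusted p = 0.0498). NDUFS1 was lower, at 107 and 69.0 CPM against 127, 145 and 137 (log2 -0.63, SE 0.20, adjusted p = 0.0467). In all 4 the groups do not overlap, and the higher of the 2 ISL1 values, or the lower for NDUFS1, is that of replicate 4. Without the 2 libraries the estimates were 0.46 for NDUFA4, 1.20 for MT-RNR1, 0.13 for MT-ATP8 and -0.32 for NDUFS1, and none was called (adjusted p = 0.113, 0.161, 0.725 and 0.197). The count of 4 became 0 without PDX1-/- with ISL1, replicate 4, 90 without its replicate 2, 58 without PAX6-/- with ISL1, replicate 3, and 1 or 2 without most of the others. Ribosomal protein genes moved in the same comparison: 54 of 81 cytosolic and 4 of 77 mitochondrial ones were called higher with all libraries.

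With ISL1 in both, the genotypes were again compared with WT. In ISL1-/- no member was called with all libraries, beside 1.02% of all genes higher and 2.69% lower, and the medians were -0.26 for mitochondrial mRNAs and -0.11 for nuclear genes. When the 2 libraries were left out, 5 nuclear genes and MT-TV were called lower and NDUFV1 higher (0.30), beside 11.2% and 8.22% of all genes. NDUFB8 was again lower, at 14.8, 15.5 and 17.6 CPM against 29.8 and 31.0 in WT with ISL1 (log2 -0.94, adjusted p = 7.4e-05 without the 2 libraries, 0.297 with them). In PAX6-/- no member was called with all libraries, beside 1.26% higher and 2.3% lower, and in PDX1-/- none, beside 0.348% and 0.286%.

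PAX6-/- with ISL1 had members of both sets called lower in the fit of 19 libraries. There 5 of 13 mitochondrial mRNAs (38.5%) and 11 of 82 nuclear genes (13.4%) were called lower and none higher, beside 8.03% and 4.17% of all genes. The mRNAs were MT-ND2 (-0.76), MT-ND3 (-0.75), MT-ATP6 (-0.73), MT-ATP8 (-0.58) and MT-ND4L (-0.51), all 13 having negative estimates. MT-ATP6 stood at 320 and 232 CPM in replicates 1 and 2 against 410 and 492 in WT with ISL1, and at 833 in replicate 3. The 8 nuclear genes with the largest falls were ATP5F1E (-0.59), COX5A (-0.58), SDHD (-0.57), SDHB (-0.52), ATP5MC3 (-0.49), COX8A (-0.48), NDUFC1 (-0.47) and COX7B (-0.43). With all libraries each of these genes had a positive estimate. In PDX1-/- with ISL1 only NDUFS4 was called lower in that fit (log2 -0.81, adjusted p = 0.0229), at 19.8 CPM in replicate 2 against 33.4 and 36.4, beside 3.17% of all genes lower and 3.5% higher; with replicate 4, at 124 CPM, the estimate was 1.05 (adjusted p = 0.399).

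The vector effects were compared between each knockout and WT in the fit of all libraries. No member was called in any of the 3. Beside this, 0.00386% of all genes were called higher and 0% lower for ISL1-/-, 0% and 0% for PAX6-/-, and 0.993% and 0.197% for PDX1-/-. The smallest adjusted p of a member was 0.172, for NDUFA4 in PDX1-/- (log2 1.73, SE 0.61), and was 1.00 in ISL1-/- and 0.894 in PAX6-/-. At an unadjusted p under 0.05 there were 0 nuclear genes and 0 mitochondrial mRNAs for ISL1-/- and PAX6-/-, and 1 of each for PDX1-/-. Of the 25884 genes tested, 769, 916 and 4150 had such a p for ISL1-/-, PAX6-/- and PDX1-/-.

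Several subunits of complex IV exist as a common form and a form of muscle or testis. The common forms were abundant in all 19 libraries: COX6A1 at 93.3 to 227 CPM, COX6B1 at 86.1 to 128, COX7A2 at 104 to 179, COX7B at 69.6 to 102 and COX8A at 49.6 to 106. The tissue forms were near 0: COX6A2, the muscle form, reached 0.132 CPM, COX7A1 0.242, COX6B2 0.278, COX8C 0.145 and COX7B2 0. Muscle markers were nevertheless present in some libraries, up to 612 CPM in ISL1-/- with BFP, a group in which COX6A2 reached 0.0867 CPM and COX7A1 0.187.

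Genes that build the complexes or express the mitochondrial genome were read from fixed lists. With all libraries 0 of 46 assembly factors and 0 of 31 genes of mitochondrial genome expression were called in any knockout with BFP. Without the 2 libraries 2 of the 31 were called higher and 6 lower in PAX6-/-, 2 and 5 in PDX1-/-, and 2 and 2 in ISL1-/-. Over all genes the shares in that fit were 11.7% and 11.9%, 13.5% and 14.1%, and 11.3% and 12.2%, so that most of these counts lie near or below the background. TFAM, which packages mitochondrial DNA and helps start its transcription, stood at 67.6 and 56.6 CPM in WT with BFP, at 44.5, 52.2 and 44.5 in PAX6-/- (log2 -0.41, adjusted p = 0.0415 in that fit) and at 43.5, 47.3 and 42.0 in PDX1-/- (log2 -0.51, adjusted p = 0.0110). TFB2M, a partner of the mitochondrial RNA polymerase, changed by -0.44 and -0.48 there, and PNPT1, an RNA-degrading enzyme of mitochondria, by -0.80 in PAX6-/-, -0.58 in PDX1-/- and -0.64 in ISL1-/-. POLG, the mitochondrial DNA polymerase, was called higher in all 3, by 0.46, 0.43 and 0.48. The assembly factors called numbered 0 higher and 4 lower in PAX6-/-, 2 and 1 in PDX1-/- and 2 and 2 in ISL1-/-.

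Among 12 nuclear regulators, CHCHD2 and ESRRB were called higher in ISL1-/- with all libraries, ESRRB higher and PPARGC1B lower in PDX1-/-, and none in PAX6-/-. ESRRB is an orphan nuclear receptor and PPARGC1B a coactivator of mitochondrial genes. CHCHD2, a mitochondrial protein that can also act in the nucleus, stood at 132 to 147 CPM in ISL1-/- with BFP and at 129 to 137 with ISL1, while no other library exceeded 0.919 CPM. It thus separated all 6 ISL1-/- libraries from the other 15.

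In the supply of electrons, SUCLG2, a subunit of succinyl-CoA synthetase, was called lower in all 3 knockouts with BFP. It stood at 88.1 and 84.3 CPM in WT, at 51.8, 55.9 and 42.0 in ISL1-/- (log2 -0.79), at 36.0, 48.7 and 43.2 in PAX6-/- (-1.01) and at 44.6, 44.4 and 46.9 in PDX1-/- (-0.93), with adjusted p of 0.0325, 0.00873 and 0.00848. DLAT of the pyruvate dehydrogenase complex was also lower in PAX6-/- (-1.26) and PDX1-/- (-1.36). Of 18 genes of the citric acid cycle 1, 2 and 2 were called lower in ISL1-/-, PAX6-/- and PDX1-/- with all libraries, and 4, 7 and 4 without the 2, when 0, 0 and 2 were called higher; of all genes 12.2%, 11.9% and 14.1% were called lower in that fit.

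Glycolysis genes were counted beside them, since glycolysis makes ATP without the respiratory chain. LDHA, which makes lactate and is low in mature beta cells, was lower in PAX6-/- (-1.59) and PDX1-/- (-1.89) with all libraries, and PFKM (1.10) and ENO2 (1.58) were higher in PDX1-/-. In the fit of 19 libraries 9 of 18 were called lower and 1 higher in PAX6-/-, 11 and 3 in PDX1-/-, and 3 and 2 in ISL1-/-, where 11.9%, 14.1% and 12.2% of all genes were called lower and 11.7%, 13.5% and 11.3% higher. The counts of ISL1-/- are near that background. In the hypoxia response list of 14 genes, P4HA1 was lower in PAX6-/- (-1.14) and PDX1-/- (-1.23) and SLC2A1, a glucose transporter, higher in PAX6-/- (0.86) with all libraries. In the fit of 19 libraries 6 of the 14 were called lower and 2 higher in PAX6-/-, 4 and 2 in PDX1-/-, and 5 and 0 in ISL1-/-. The shares of all genes in that fit are those given for glycolysis.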

How the data were processed

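RNA of sorted cells was made into libraries with SMART-Seq v4 and KAPA EvoPrep, per the labels' protocols. The authors deposited raw counts per gene in 1 table; the submitters' processing notes name STAR 2.7.11b, featureCounts 2.1.1 and GRCh38, and the strand setting is not given in the sources used here. One broken entry of 62700 was left out, and all 62699 others matched a symbol. Counts of all 21 libraries were fitted together with edgeR 4.0.16 (R 4.3.3; TMM factors, filterByExpr with a minimum count of 10 and a total of 15, quasi-likelihood F test, Benjamini-Hochberg adjustment over 25884 genes, adjusted p under 0.05 called). The fit was also run on simulated counts with planted changes larger than most seen in the members. Genes varied independently there and no library stood apart. That run therefore does not check the calls that depend on the 2 libraries. Replicate numbers were taken from the sample descriptions; in 3 libraries the title gives another number. Same-numbered libraries deviated together between PAX6-/- with BFP and with ISL1, with correlations of 0.155 to 0.391 in 3 pairs. Between ISL1-/- with BFP and with ISL1 the correlations were 0.099 to 0.293 in 3 pairs. In the other comparisons with 3 pairs the lowest correlation was at most 0.017. PDX1-/- and WT, both with BFP, gave 0.106 to 0.210 in 2 pairs. Alternatives were RLE factors, DESeq2 1.42.0, no filter, library size without mitochondrial genes, only the groups compared, a replicate block, each library left out and, chosen after seeing the data, both libraries that stand apart left out. Named genes were the mitochondrial mRNAs and rRNAs, isoform pairs, 2 nuclear subunits per complex, members called (up to 8 per direction) and list genes called. Other genes, among them TFAM, TFB2M, PNPT1 and POLG, were chosen after their values were seen. Members and lists were chosen with earlier results of these data known.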

Additional observations from a re-analysis of the deposited data

How the results depend on the processing

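Of 768 alternatives tried on the 33 set results, 697 left the value close to the one reported and 71 moved it. A median difference between the sets counted as close if it shifted by less than 0.176, so a small one could change sign. For the vector in ISL1-/- it ran from -0.037 to 0.18 over single libraries left out, and 0 counted as moved. Such a difference also does not show a shift that both sets share. Of the 5 single-gene calls made with all libraries none changed direction, and they missed the threshold 69 times over the alternatives. Genes called only without the 2 libraries could have the opposite sign with them, as NDUFS4 in PDX1-/- with ISL1 (-0.81 and 1.05). Leaving out both libraries that stand apart, chosen after seeing the data, gave 6, 17 and 9 members called in ISL1-/-, PAX6-/- and PDX1-/- with BFP, 7, 16 and 1 with ISL1, and 3 and 4 for the vector in ISL1-/- and PAX6-/-. The median of mitochondrial mRNAs minus that of nuclear genes then became 0.13 for the vector in PAX6-/-, -0.29 for PAX6-/- with ISL1 against WT, and 0.0859 for the PAX6-/- vector effect against that in WT. With only the groups compared in the fit, 6, 12 and 10 members were called in ISL1-/-, PAX6-/- and PDX1-/- with BFP, 8 in ISL1-/- with ISL1, and 2 and 0 for the vector in ISL1-/- and PDX1-/-. For the vector in PDX1-/- DESeq2 called 8 members and the fit without a filter 7; for PDX1-/- with BFP, RLE factors and no filter gave 0. With the replicate block 1 member was called in ISL1-/- with ISL1. For the vector in PDX1-/- the block is not a separate check. Replicate number 4 belongs only to PDX1-/- with ISL1, replicate 4, so the block takes that library out of the comparison. In PAX6-/-, where same-numbered libraries deviated together as they did in ISL1-/-, the block left the vector count at 0. Counting rRNA and tRNA genes too gave -0.10 for the log2 ratio of PAX6-/- with ISL1. Over fits that leave out 1 library each, members called ranged from 0 to 90 for the vector in PDX1-/-, 0 to 85 for PDX1-/- with ISL1, 0 to 58 for the PDX1-/- vector effect against that in WT, 0 to 1 for ISL1-/- and for PAX6-/- with BFP, and 0 to 2 for PDX1-/- with BFP. The median difference ranged from -0.22 to 0.13 for the vector in PAX6-/-, -0.14 to 0.18 in PDX1-/-, -0.63 to -0.29 for PAX6-/- with ISL1 and -0.21 to 0.0855 for the PAX6-/- vector effect. The counts of 85 and 58 both arose without PDX1-/- with ISL1, replicate 2, which left replicate 4 alone in its group and assumed to vary like the others. The cause was not tested. Groups of 2 or 3 libraries limit all these counts.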
